A study of Mus musculus with 29 samples.

Results

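Atoh1 expressed without its partners and Pou4f3 expressed without its partners were compared by where each protein bound the genome. Atoh1 peaks of iAtoh1 cells and the 22433 Pou4f3 peaks of iPou4f3 cells made up 38001 of the 175162 peaks in the 9 lists of the series. A window of 300 bp was centred on each peak summit, and windows that shared at least 1 bp were joined. The join gave 36022 sites. Of these, 1730 held peaks of both lists, 13628 held Atoh1 only and 20664 held Pou4f3 only.

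Each line was a mouse embryonic stem cell line made from the parental line A2loxCre, in which doxycycline switches on the introduced factor together with the fluorescent reporter Venus. The iAtoh1 line carried Atoh1 with a Flag tag, the iPou4f3 line carried Pou4f3 with a Myc tag, and chromatin was immunoprecipitated with antibodies to those tags. Cells were grown as embryoid bodies, exposed to doxycycline at 2 µg/ml for 48 h and fixed at day 6. Each immunoprecipitation and each input had 2 libraries, from different clones of a line according to the series' design text, and the authors merged the 2 libraries before they called peaks. The lists therefore carry no spread between replicates, and every interval below is a 95% interval over sites that covers counting error only. The factor, the antibody, the tag and the line change together between the lists and cannot be told apart. Peak lists hold no expression values, so the cell type of the embryoid bodies was not checked here.

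Atoh1 is a proneural basic helix-loop-helix factor needed to make the hair cells of the inner ear, and it also drives several groups of neurons. Proteins of this family bind the E-box, a short palindrome-like sequence, as dimers with broadly expressed partners. Pou4f3 is a POU-homeodomain factor that hair cells need for maturation and survival. POU factors contact DNA through a POU-specific domain and a homeodomain, and the Pou4f proteins prefer A and T rich sequences. Gfi1, a zinc finger repressor, is the third hair cell factor of the series and was absent from both single-factor lines as a transgene.

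The strongest sites of each class are shown first, as extremes and not as typical sites. All sequences were read from the mm9 genome on the plus strand, 5′ to 3′, centred on the summit. Capitals mark 4 patterns on either strand: the E-box CAGCTG, the E-box CAGATG (also read as CATCTG), the Pou4f pattern ATAATTAAT with at most 1 mismatch, and the second Pou4f pattern ATGAATAAT with at most 1 mismatch. The last pattern was added after the strongest Pou4f3 sites had been seen. The windows of Atoh1-only sites with the highest fold enrichment were arrays of CAGCTG. The first window below lies in an intron of Dnahc2, an axonemal dynein gene, where Atoh1 was enriched 43.9-fold. The second lies in an intron of Spata17, where the enrichment was 33.5-fold.
Dnahc2, chr11:69273466-69273665: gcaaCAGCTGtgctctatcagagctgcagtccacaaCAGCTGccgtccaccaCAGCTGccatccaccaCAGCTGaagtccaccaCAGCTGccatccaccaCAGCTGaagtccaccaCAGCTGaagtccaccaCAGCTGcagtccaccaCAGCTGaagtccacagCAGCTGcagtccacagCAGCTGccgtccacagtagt
Spata17, chr1:188995465-188995664: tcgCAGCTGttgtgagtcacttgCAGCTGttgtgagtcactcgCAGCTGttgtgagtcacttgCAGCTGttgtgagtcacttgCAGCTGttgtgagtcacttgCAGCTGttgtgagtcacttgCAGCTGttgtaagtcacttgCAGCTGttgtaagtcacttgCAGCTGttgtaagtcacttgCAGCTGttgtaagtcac

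In the 250 bp searched around each summit, the Dnahc2 window held 11 copies of CAGCTG and the Spata17 window held 10. The third ranked window, chr9:121450654-121450953 in an intergenic region whose nearest coding start is that of Cck, held 17 copies at 30.3-fold. Such arrays were rare. Of the Atoh1-only sites outside the dense tiles defined below, 2.30% held 4 or more copies of CAGCTG and 46.3% held none. Strong Atoh1-only sites with few copies of CAGCTG are shown as well, chosen after their values were seen. A window in an intron of Iffo2, 15473 bp from its start, was enriched 19.4-fold with 1 CAGCTG and 3 CAGATG. A window in an intron of Hps4, which encodes a subunit of a complex for lysosome-related organelles, was enriched 17.7-fold with 1 copy of each E-box.
Iffo2, chr4:139146449-139146598: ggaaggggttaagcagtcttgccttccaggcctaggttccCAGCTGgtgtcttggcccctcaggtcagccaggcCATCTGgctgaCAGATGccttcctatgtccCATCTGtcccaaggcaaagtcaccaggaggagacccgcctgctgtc
Hps4, chr5:112775349-112775498: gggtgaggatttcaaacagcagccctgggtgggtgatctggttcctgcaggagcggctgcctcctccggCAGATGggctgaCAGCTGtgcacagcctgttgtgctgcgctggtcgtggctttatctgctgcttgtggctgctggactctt

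The 3 Pou4f3-only sites with the highest fold enrichment carried no copy of either E-box. The first window below was intergenic, at −61576 bp from the nearest coding start, that of the zinc finger gene Casz1, and Pou4f3 was enriched 72.4-fold there. The second was intergenic as well, with Mki67 as its nearest coding gene, at 51.9-fold. The third lay at −20 bp from the start of Gm11574 and 623 bp downstream of a start of Osbpl7, at 49.2-fold. Each of the 3 windows held the second Pou4f pattern, and the Mki67 window also held the first one, overlapping it.
Casz1, chr4:148116862-148117061: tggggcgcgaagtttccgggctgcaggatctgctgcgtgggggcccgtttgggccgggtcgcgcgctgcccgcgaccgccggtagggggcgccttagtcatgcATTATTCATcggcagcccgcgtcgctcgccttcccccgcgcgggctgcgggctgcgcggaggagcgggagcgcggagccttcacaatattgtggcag
Mki67, chr7:143412478-143412677: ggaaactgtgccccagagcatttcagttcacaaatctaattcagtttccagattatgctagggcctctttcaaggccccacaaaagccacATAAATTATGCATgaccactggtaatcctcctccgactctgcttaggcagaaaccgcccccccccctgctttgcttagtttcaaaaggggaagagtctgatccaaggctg
Osbpl7, chr11:96912666-96912865: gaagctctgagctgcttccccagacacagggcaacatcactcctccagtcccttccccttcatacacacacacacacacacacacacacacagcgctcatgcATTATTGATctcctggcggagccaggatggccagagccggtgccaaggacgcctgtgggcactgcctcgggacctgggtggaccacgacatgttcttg

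Sites bound in both lines are shown by their rank in both lists, taking for each site the lower of its 2 ranks, so a site with a high fold for 1 factor only does not lead. The window near Ttc29, at −105754 bp from its start, held 1 CAGCTG close to the Atoh1 summit and no Pou4f match, and it was enriched 6.47-fold for Atoh1 and 10.2-fold for Pou4f3. The promoter window at −145 bp from the start of Mll1, a histone methyltransferase gene, held 1 CAGATG in GC-rich DNA and was enriched 7.82-fold for Atoh1 and 8.67-fold for Pou4f3. The remaining top site of this class, chr3:58075374-58075718 in an intergenic region, held none of the 4 patterns at 9.02-fold and 11.7-fold. All 3 of these sites also had a peak in each of the 7 other lists, Gfi1 included.
Ttc29, chr8:80631342-80631541: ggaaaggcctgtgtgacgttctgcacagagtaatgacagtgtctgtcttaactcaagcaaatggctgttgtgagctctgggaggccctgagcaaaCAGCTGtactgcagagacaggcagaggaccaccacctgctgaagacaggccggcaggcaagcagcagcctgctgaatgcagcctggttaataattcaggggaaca
Mll1, chr9:44689424-44689623: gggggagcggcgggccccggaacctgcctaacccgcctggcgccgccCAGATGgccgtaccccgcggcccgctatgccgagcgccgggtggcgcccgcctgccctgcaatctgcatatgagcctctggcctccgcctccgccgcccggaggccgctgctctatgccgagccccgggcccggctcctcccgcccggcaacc

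A minority of sites was bound in both lines, and no background share for this overlap was computed. Of the 15358 sites with Atoh1, 11.3% (interval 10.8 to 11.8%) also held Pou4f3, and of the 22394 sites with Pou4f3, 7.73% (7.38 to 8.08%) also held Atoh1. The summits of joined peaks lay a median of 83 bp apart, 36.6% of the pairs were within 50 bp and 30.0% were over 150 bp apart. These shares depended on the overlap rule and on the list. Windows of 100 bp gave 6.31% of the Atoh1 sites, and windows of 1000 bp gave 18.3%. When both lists were limited to a −log10 p of 10 or more, the shares were 5.24% of the Atoh1 sites and 2.68% of the Pou4f3 sites.

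A share of these sites lay packed together. Of the 26558 tiles of 100 kb into which the genome was cut, 235 tiles (0.885%) held at least 10 sites each and together held 5757 sites, 16.0% of all. Such dense tiles held 38.1% (35.8 to 40.4%) of the sites bound in both lines, 30.7% (30.0 to 31.5%) of the Atoh1-only sites and 4.39% (4.12 to 4.68%) of the Pou4f3-only sites. Chromosome 14 had 33.6% of the sites in dense tiles and chromosome 4 had 17.1%. The fullest tile, chr13:12900001-13000000, held 80 Atoh1-only sites, 14 Pou4f3-only sites and 15 bound in both lines, next to the placental prolactin genes Prl2c3 and Prl2c2. Within dense tiles 42.1% of the Pou4f3 sites were also Atoh1 sites, against 5.14% outside them. Of the Atoh1 sites, 13.6% inside dense tiles and 10.2% outside were also Pou4f3 sites.

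Values from the peak caller differed in the dense tiles. The fold enrichment and the p-value of a peak together give the stacked fragments at its summit and the local background used for it. The usual background was 7.19 fragments in the Atoh1 list and 7.41 in the Pou4f3 list, and the lowest stack of a kept peak was 19 fragments in each. At sites bound in both lines, the Pou4f3 peak had a local background of over 2 times the usual one in 22.0% of dense-tile sites and in 3.55% of the others. For Atoh1-only sites these shares were 3.87% and 0.498%. The part of background in the shared sites was not tested. Patterns and gene assignments are therefore given outside dense tiles as well, which leaves 1071 sites bound in both lines, 9438 Atoh1-only sites and 19756 Pou4f3-only sites.

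Atoh1 and Pou4f3 alone differed in how often they sat at gene starts. A promoter site is one whose summit lies within 1000 bp of an annotated transcript start. Promoters held 17.6% of the Atoh1-only sites and 28.3% (27.7 to 28.9%) of the Pou4f3-only sites, a difference of −10.7 percentage points (−11.5 to −9.77). The class bound in both lines held 45.1% (42.8 to 47.5%). Outside dense tiles the promoter share of the shared class rose to 65.5% (62.6 to 68.4%), with 21.6% for Atoh1 only and 28.7% for Pou4f3 only. Windows placed every 10 kb along the genome were at promoters in 4.12% of cases, so each class was at promoters more often than such a grid.

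**Figure D1:**
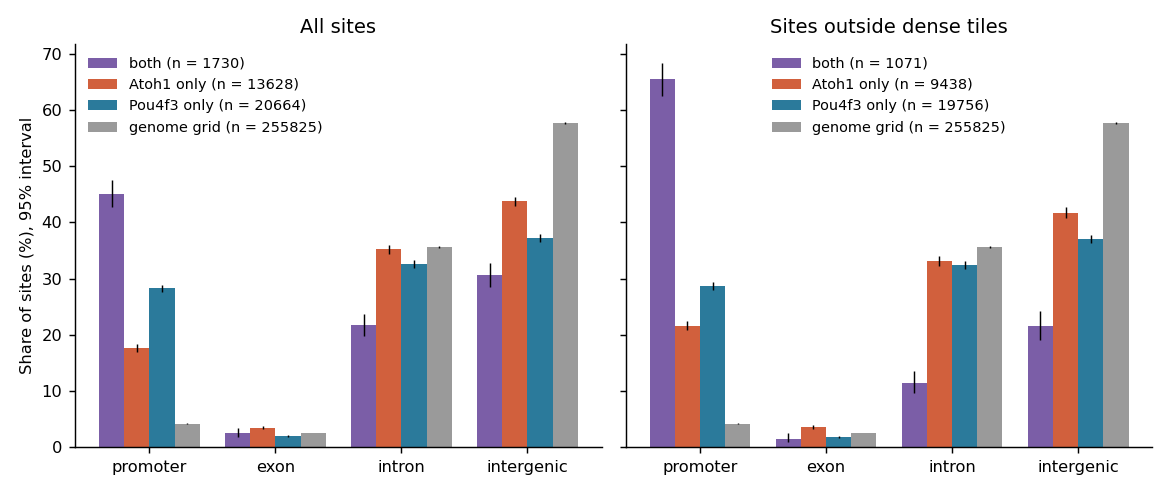
Share of sites in promoters, exons, introns and intergenic regions (vertical axis, % of sites) for the classes bound in both lines, by Atoh1 only and by Pou4f3 only, and for a genome grid, over all sites (left) and outside dense tiles (right). Thin lines are exact 95% intervals over sites. Promoters held 45.1% of the sites bound in both lines, 17.6% of the Atoh1-only and 28.3% of the Pou4f3-only sites.

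The remaining sites were mostly intronic or intergenic. Introns held 35.2% of the Atoh1-only and 32.6% of the Pou4f3-only sites, and outside dense tiles 33.1% and 32.4%, a difference whose interval spanned 0 (−0.447 to 1.86 points). Intergenic DNA held 43.7% of the Atoh1-only sites and 37.2% of the Pou4f3-only sites, a difference of 6.52 points (5.46 to 7.58). With both lists limited to a −log10 p of 10 or more, this difference turned to −0.313 points (−2.07 to 1.45), so the intergenic excess of Atoh1 did not hold for the stronger peaks. Exons held 3.43% of the Atoh1-only and 1.89% of the Pou4f3-only sites.

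Distances to the nearest start followed the same order. The median was 1906.5 bp for sites bound in both lines, 9659.5 bp for Atoh1-only sites, 9209.5 bp for Pou4f3-only sites and 28550 bp for the grid. Outside dense tiles the median of the shared class was 261 bp, and 31.8% of its sites lay within 100 bp of a start, against 7.31% and 8.23% of the single classes.

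Base composition differed with place. The mean GC content of the 250 bp around the summit was 54.9% ± 16.3 (SD over 1730 sites) for the shared class, 50.3% ± 10.7 (13628 sites) for Atoh1 only and 47.8% ± 13.7 (20664 sites) for Pou4f3 only, with 41.7% for the grid. Outside dense tiles these means were 63.8%, 54.1% and 47.9%. Away from promoters as well, Atoh1-only sites averaged 51.6% and Pou4f3-only sites 41.8%, the latter close to the grid. Among promoter sites outside dense tiles, 88.0% of those bound in both lines had the GC content and CpG ratio of a CpG island, against 53.3% of the Atoh1-only and 68.2% of the Pou4f3-only promoters.

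The E-box CAGCTG was found mainly at Atoh1 sites. It occurred in 40.9% (40.1 to 41.7%) of the Atoh1-only sites, in 30.9% (28.7 to 33.1%) of the sites bound in both lines and in 10.1% (9.66 to 10.5%) of the Pou4f3-only sites. Windows of the same length 1000 bp away from those sites held it in 11.5%, 9.22% and 10.4% of cases, the grid in 8.94% and windows at starts of protein-coding transcripts in 15.2%. The Pou4f3-only sites thus held CAGCTG about as often as their own flanks. Outside dense tiles the shares were 53.7% for Atoh1 only, 43.3% for the shared class and 10.1% for Pou4f3 only. Inside dense tiles they were 12.2%, 10.6% and 9.14%, with 9.27%, 7.97% and 9.69% in the flanks, so little of the E-box excess lay there.

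The second E-box, CAGATG, was shared less evenly. Outside dense tiles it occurred in 45.5% of the Atoh1-only sites, in 23.2% of the sites bound in both lines and in 13.9% of the Pou4f3-only sites, with 18.5%, 16.6% and 17.1% in their flanks. The shared class minus the Atoh1-only class gave −22.3 points (−24.96 to −19.5). For CAGCTG the same difference was −10.4 points (−13.5 to −7.20). Other E-boxes differed less from flanks. Away from promoters, CACCTG occurred in 20.8% of the Atoh1-only sites against 18.9% of flanks, and CAACTG in 12.0% against 12.0%.

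The Pou4f pattern was found mainly at Pou4f3-only sites. It occurred in 44.6% (43.9 to 45.3%) of the Pou4f3-only sites, in 5.16% (4.79 to 5.54%) of the Atoh1-only sites and in 7.34% (6.16 to 8.67%) of the sites bound in both lines, against 11.8% of the grid. Outside dense tiles and promoters it occurred in 59.7% of the Pou4f3-only sites, and the second pattern in 62.2%. Either pattern was found in 76.3% (75.6 to 77.0%) of those sites. The exact 9 letters of the first pattern were found in 11.8% and those of the second in 14.3%, with 0.585% and 0.468% in flanks. The 2 patterns share several letters, and one stretch can match both.

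At Atoh1-only sites the Pou4f pattern was rarer than in the surrounding DNA. Outside dense tiles and promoters it occurred in 3.01% (2.64 to 3.43%) of the Atoh1-only sites and in 8.10% of their flanks. These sites were also richer in G and C than the grid, as given above, and the part of base composition was not tested. Other A and T rich words known from POU and homeodomain factors were frequent at Pou4f3-only sites of this kind. The palindrome ATGCAT occurred in 20.8% against 7.90% of flanks, and the homeodomain core TAATTA in 27.3% against 8.45%.

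**Figure D2:**
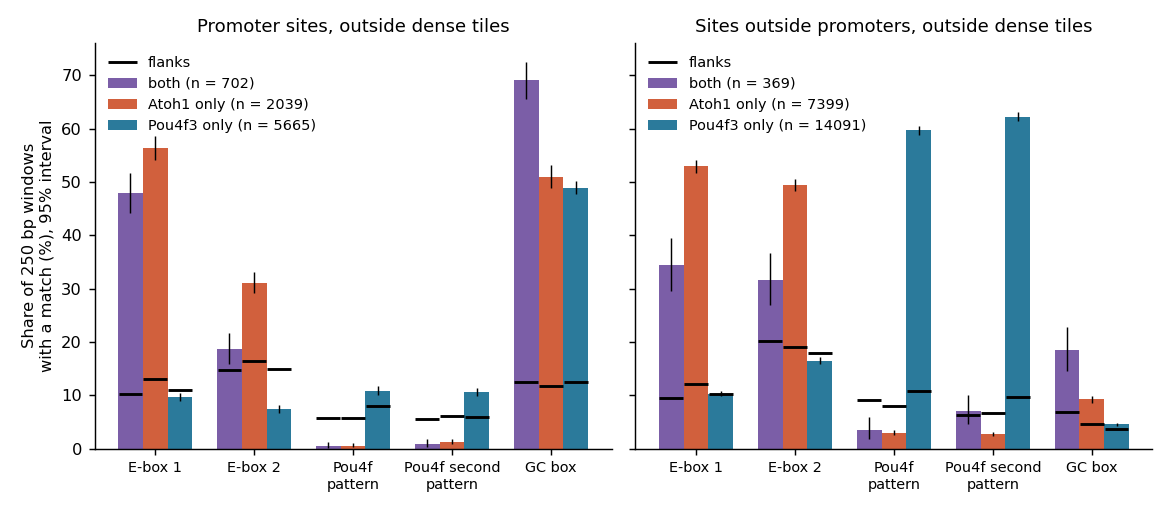
Share of sites with each sequence pattern (vertical axis, % of sites) in the 3 classes outside dense tiles, at promoters (left) and elsewhere (right). Thin lines are exact 95% intervals over sites, black dashes are flanks 1000 bp away, and E-box 1 and E-box 2 stand for CAGCTG and CAGATG; the Pou4f pattern was in 59.7% of Pou4f3-only sites away from promoters and in 10.8% at promoters.

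Sites bound in both lines held E-boxes far more often than Pou4f patterns. Outside dense tiles 59.5% (56.5 to 62.4%) of the 1071 shared sites held CAGCTG or CAGATG, and 3.64% (2.60 to 4.94%) held either Pou4f pattern. Only 1.21% (0.648 to 2.07%) held an E-box together with the first Pou4f pattern, which is 13 sites. These windows were centred on the Atoh1 summit. Centred on the Pou4f3 summit instead, CAGCTG occurred in 26.98% (24.3 to 29.8%) and the Pou4f pattern in 5.32% (4.06 to 6.84%) of the same sites. Away from promoters the shared class of 369 sites held CAGCTG in 34.4% and the second Pou4f pattern in 7.05%, close to the 6.23% of its flanks.

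Pou4f3-only sites at promoters differed from those elsewhere. Among 5665 Pou4f3-only promoter sites outside dense tiles, 10.8% (10.0 to 11.7%) held the Pou4f pattern, against 59.7% (58.8 to 60.5%) of the 14091 sites elsewhere. None of the 4 patterns was present in 72.8% of these promoter sites and in 17.6% of the sites elsewhere. Atoh1 differed less. CAGCTG occurred in 56.4% (54.2 to 58.6%) of the 2039 Atoh1-only promoter sites and in 52.9% (51.8 to 54.1%) of the 7399 sites elsewhere. CAGATG was less frequent at promoters, at 31.1% against 49.4%. The GC box GGGCGG, known as a binding sequence of Sp and Klf factors, occurred in 69.1% of the shared promoter sites, 51.0% of the Atoh1-only and 49.0% of the Pou4f3-only ones, and in 38.1% of all windows at protein-coding starts.

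The letters were centred on the peaks of their own factor. Outside dense tiles the nearest CAGCTG lay a median of 19 bp from the summit at Atoh1-only sites that held one, 21 bp at shared sites and 61 bp at Pou4f3-only sites. The nearest Pou4f match lay 15.5 bp away at Pou4f3-only sites and 74.5 bp away at Atoh1-only sites. In the central 20 bp bin, 16.0% of the Atoh1-only sites held CAGCTG against 0.709% of the Pou4f3-only sites. The Pou4f pattern was in the central bin of 16.8% of the Pou4f3-only sites, 0.106% of the Atoh1-only sites and 0 of the 1071 shared sites, centred on their Atoh1 summit.

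**Figure D3:**
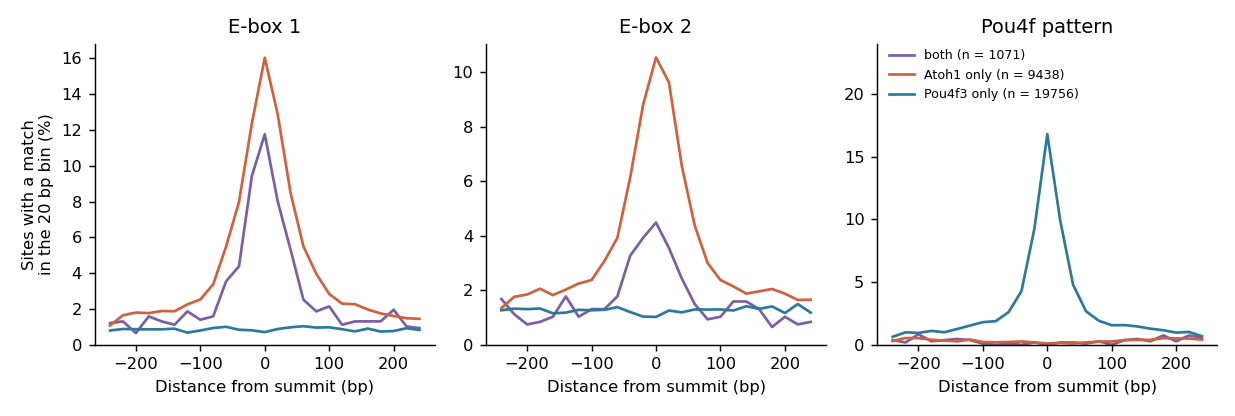
Share of sites with a pattern match in bins of 20 bp (vertical axis, %) against the distance from the summit in bp (horizontal axis), outside dense tiles, for the 3 classes, with the shared class centred on the Atoh1 summit and E-box 1 standing for CAGCTG. E-box 1 peaked at 16.0% of Atoh1-only and 11.8% of shared sites, and the Pou4f pattern at 16.8% of Pou4f3-only sites.

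A search without chosen letters was run over words of 6 letters. When all sites were used, words with CG led each class, with CGCGCG in front for the shared class at 9.19 times its flank share. Outside promoters and dense tiles, CAGCTG led the Atoh1-only class at 4.33 times its flanks. The Pou4f3-only class was led by ATTAAT at 3.72 times, AATAAT at 3.45 times, GCATTA at 3.37 times, TAATTA at 3.23 times and AATTAT at 3.16 times. Words with CG still led the shared class there, the first of them CGACGC at 11.3 times, in 4.61% of the 369 sites.

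Sites with higher enrichment held the factor's letters more often. Atoh1-only sites outside dense tiles and promoters were ranked by fold enrichment and cut into 5 equal groups. CAGCTG rose from 37.2% in the lowest group to 71.2% in the highest, and CAGATG from 39.9% to 60.4%. At Atoh1-only promoter sites CAGCTG went from 37.99% to 78.4%. The median fold rose with the number of copies too, from 2.95 with no copy (4372 sites) to 3.30 with 1, 3.54 with 2, 3.66 with 3 and 4.64 with 4 or more (217 sites). These medians rest on sites of 1 merged list, and the quartiles of neighbouring groups overlap.

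For Pou4f3 the course was less even. Among Pou4f3-only sites outside dense tiles and promoters, the Pou4f pattern went from 48.7% in the lowest group to 65.8% in the fourth and 59.3% in the highest. The second pattern rose throughout, from 42.3% to 76.8%. At promoters the first pattern went from 4.94% in the lowest group to 24.4% in the highest. Among the 20 strongest Pou4f3-only sites, 18 held the second pattern, 9 the first and 3 CAGCTG. All of the 20 strongest Atoh1-only sites held CAGCTG, 14 of them at least 4 copies, and none held a Pou4f pattern.

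**Figure D4:**
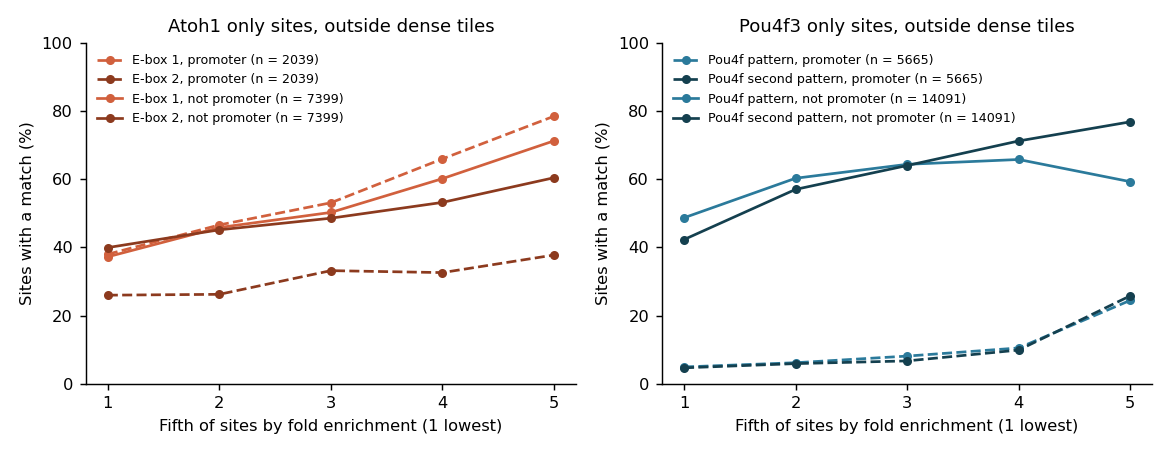
Share of sites with a pattern (vertical axis, %) in 5 equal groups of sites ordered by fold enrichment (horizontal axis, lowest to highest), for Atoh1-only (left) and Pou4f3-only sites (right) outside dense tiles, with dashed lines for promoter sites. E-box 1 and E-box 2 stand for CAGCTG and CAGATG. E-box 1 went from 37.2% to 71.2% of Atoh1-only sites away from promoters, and the second Pou4f pattern from 42.3% to 76.8% of such Pou4f3-only sites.

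The 7 other lists of the series came from lines with more than 1 factor and were not used to define the classes. Single-factor sites recurred in them according to the factor. Outside dense tiles an Atoh1 peak was found at 57.0% of the Atoh1-only sites in iG+A cells (Gfi1 and Atoh1), at 52.3% in iP+A cells (Pou4f3 and Atoh1) and at 60.6% in iGPA cells (all 3 factors). A Pou4f3 peak was found at 63.2% of the Pou4f3-only sites in iG+P cells (Gfi1 and Pou4f3), at 44.4% in iP+A cells and at 52.5% in iGPA cells. The lists differ in length, from 17082 peaks for Pou4f3 in iP+A to 32632 for Pou4f3 in iG+P.

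Recurrence of Atoh1 followed the E-boxes. In iG+A cells an Atoh1 peak was found at 66.1% (65.0 to 67.2%) of the Atoh1-only sites with CAGCTG or CAGATG and at 28.2% (26.3 to 30.1%) of those without. In the shared class these shares were 73.0% and 48.8%. Recurrence of Pou4f3 followed the Pou4f pattern. In iG+P cells a Pou4f3 peak was found at 77.8% (76.9 to 78.6%) of the Pou4f3-only sites with the pattern and at 50.9% (49.96 to 51.9%) of those without. Pou4f3 recurrence was 71.4% away from promoters and 42.8% at promoters.

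Atoh1 was found at more of the Pou4f3-only sites in iP+A than in iG+A cells, which differ in both Pou4f3 and Gfi1. Over all 20664 of them, an Atoh1 peak was present at 11.04% in iP+A cells and at 6.32% in iG+A cells, a difference of 4.72 points (4.24 to 5.20) over the same sites, although the iP+A list was the shorter one, 18949 against 20504 peaks. The difference varied with the letters of the site. For this split only the first Pou4f pattern was counted. Outside dense tiles, sites with an E-box and that pattern (2286 sites) had an Atoh1 peak in 18.2% of cases in iP+A and in 1.09% in iG+A. Sites with an E-box and without the first Pou4f pattern (2128 sites) went from 10.6% in iG+A to 23.1% in iP+A. Sites with the first Pou4f pattern and no E-box (6734 sites) had 3.12% in iP+A and 0.549% in iG+A. Sites with neither (8608 sites) had 10.3% and 8.78%, a difference of 1.55 points (0.765 to 2.33). Some sites counted as lacking the first pattern held the second one, and 6604 sites held none of the 4 patterns.

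The Pou4f3-only sites with an Atoh1 peak in iP+A and not in iG+A numbered 1626 outside dense tiles. CAGCTG or CAGATG occurred in 47.8% (45.4 to 50.3%) of them, against 19.8% (19.2 to 20.4%) of the 17086 sites with an Atoh1 peak in neither line. The Pou4f pattern occurred in 36.4% of them and in 49.0% of the sites with a peak in neither line. Their Atoh1 summit in iP+A lay a median of 57 bp from the Pou4f3 summit of iPou4f3 cells. Promoters made up 37.1% of these sites. The 664 sites with the reverse pattern, an Atoh1 peak in iG+A and not in iP+A, were at promoters in 85.2% of cases and held either E-box in 18.4%. iP+A and iG+A cells differ in both Gfi1 and Pou4f3, whereas iGPA cells hold the factors of iG+A cells and Pou4f3 in addition. An Atoh1 peak was present at 13.6% of all Pou4f3-only sites in iGPA cells, 7.25 points (6.75 to 7.75) more than in iG+A cells, in a list that was longer, 26231 against 20504 peaks. At the 2286 sites with an E-box and the first Pou4f pattern outside dense tiles the share in iGPA cells was 21.0% (19.3 to 22.7%), against 1.09% in iG+A cells. At the sites with neither an E-box nor the first Pou4f pattern it was 13.6% against 8.78%, a difference of 4.80 points (4.00 to 5.60). Each list came from a line of its own.

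Pou4f3 was not found at more of the Atoh1-only sites in iP+A than in iG+P cells, which differ in both Atoh1 and Gfi1. A Pou4f3 peak was found at 11.5% of all Atoh1-only sites in iP+A cells and at 19.6% in iG+P cells, a difference of −8.06 points (−8.79 to −7.33). Outside dense tiles the shares were 5.73% and 9.01%, a difference of −3.27 points (−3.92 to −2.62). Both lists were also shortened to the same number of peaks of highest −log10 p, a step chosen after the data were seen. The difference over all Atoh1-only sites was then −0.506 points (−1.17 to 0.153) and its interval spanned 0. iGPA cells hold the factors of iG+P cells and Atoh1 in addition. A Pou4f3 peak was found at 4.29% of all Atoh1-only sites in iGPA cells, −15.3 points (−16.0 to −14.6) against iG+P cells, in a shorter list. Atoh1-only sites outside dense tiles with an E-box and without the first Pou4f pattern numbered 7027. They had a Pou4f3 peak in 4.04% of cases in iP+A and in 4.80% in iG+P.

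**Figure D5:**
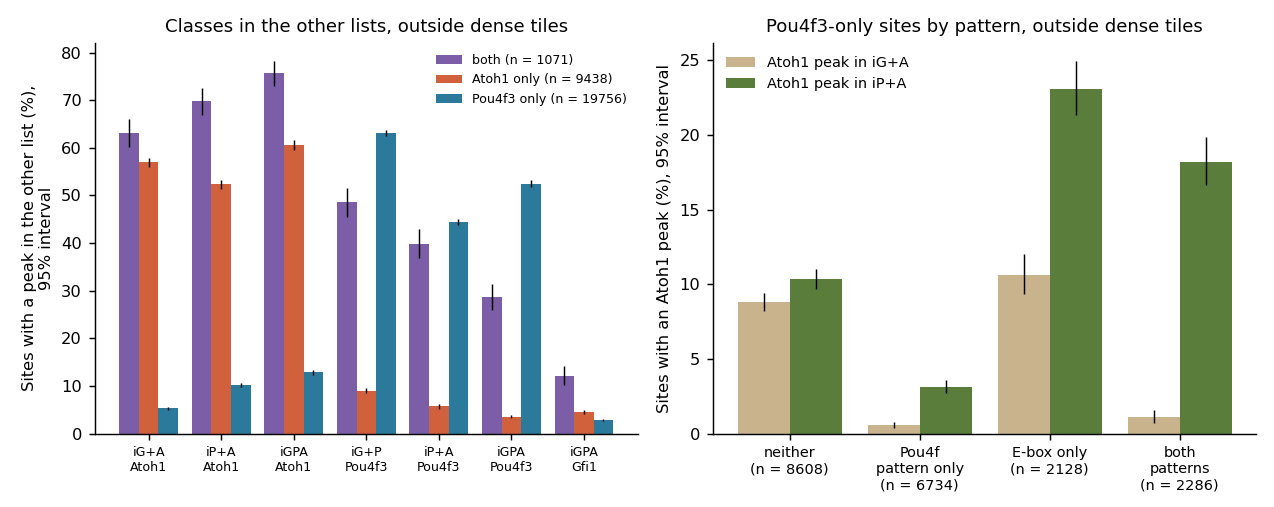
Left, share of sites of the 3 classes with a peak in each of the 7 other lists outside dense tiles. Right, share of Pou4f3-only sites with an Atoh1 peak in iG+A and iP+A cells, by whether the site holds an E-box and the first Pou4f pattern. The second Pou4f pattern was not counted there. Thin lines are exact 95% intervals over sites. Pou4f3-only sites with an E-box and the first Pou4f pattern had an Atoh1 peak in 18.2% of cases in iP+A and 1.09% in iG+A.

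Gfi1 was found more often at sites bound in both lines than at sites of either single class. The iGPA list of Gfi1 has 3012 peaks from 1 library, and it covered 10.9% (9.49 to 12.5%) of the sites bound in both lines, 4.19% of the Atoh1-only and 2.84% of the Pou4f3-only sites. Away from promoters and dense tiles it covered 20.6% (16.6 to 25.1%) of the 369 shared sites.

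Each site was assigned to the gene with the nearest start. Of 22368 protein-coding genes, 5081 (22.7%) were nearest to at least 1 Atoh1-only site, 8701 (38.9%) to at least 1 Pou4f3-only site and 1064 (4.76%) to at least 1 site bound in both lines. Atoh1-only and Pou4f3-only sites at separate places of the same gene were found for 2811 genes (12.6%). Many more genes than sites were therefore shared. Of the 5664 genes with any Atoh1 site, 62.7% (61.4 to 63.9%) had a Pou4f3 site as well, against 41.0% of all genes. Of the 9170 genes with any Pou4f3 site, 38.7% (37.7 to 39.7%) had an Atoh1 site, against 25.3% of all genes. Genes with sites also had more sequence nearest to them, a median of 59.4 kb for Atoh1 genes and 56.7 kb for Pou4f3 genes against 23.4 kb for genes with neither, and its part in the overlap was not tested.

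Genes with the most sites differed by class. The Atoh1-only class was led by genes in dense tiles: Prl2c3 with 98 sites, Prl2c2 with 54, Gm10479 with 46, Tmem181b-ps with 44, Gm3667 and Naip6 with 43 each. The shared class was led by Prl2c3 with 24 and Gm3667 with 12, followed by Prl2c2 with 8 and by 4932411N23Rik, Gm13225 and Gm3033 with 6 each. Genes with many sites in the Pou4f3-only class included long genes of the nervous system. Auts2, a neurodevelopmental gene, had 16 Pou4f3-only and 13 Atoh1-only sites in 1290.54 kb nearest to it. Epb4.1l3 and the cell adhesion gene Ntm had 13 Pou4f3-only sites each, and 1700025G04Rik had 12, beside 17 at Prl2c3. Outside dense tiles the Atoh1-only class was led by Auts2 with 13 sites, Gm2799 with 11, and BC048507 and the corepressor gene Cbfa2t3 with 10 each.

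Gene lists were read against those background shares, and their members differ in how much sequence is nearest to them (median 34.2 kb over all genes). Notch pathway genes, which carry the signal by which hair cells and neurons restrain their neighbours, were near Atoh1-only sites in 19 of 25 cases (76.0%, all genes 22.7%) and near Pou4f3-only sites in 16 of 25 (64.0%, all genes 38.9%). Their median territory was 42.0 kb, and per Mb they had 22.2 Atoh1-only and 16.0 Pou4f3-only sites, against 6.06 and 9.70 for all genes. Notch1, a receptor, had 6 Atoh1-only sites up to 8.06-fold and 1 Pou4f3-only site. Jag1, a ligand, had 6 Pou4f3-only sites up to 7.37-fold, 1 Atoh1-only site and 1 site bound in both lines. Neurl1a, a ubiquitin ligase, had 6 Atoh1-only and 3 Pou4f3-only sites, and Maml3, a coactivator, had 3 and 2 with 1 shared.

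Some Notch genes were bound by Atoh1 and had no Pou4f3 site. Hes6, an inhibitor of Hes1, had 3 Atoh1-only sites with an enrichment of up to 15.3-fold, and Heyl had 5 with up to 11.6-fold. Both genes were named after their values were seen. Sites of both single classes were also found at Hes1, Hey2, Lfng, Nrarp, Notch2, Notch3 and Maml1. Rfng alone of the 25 had no site.

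Genes that act when cells leave the cell cycle were near Atoh1-only sites in 13 of 20 cases (65.0%, all genes 22.7%). They were near Pou4f3-only sites in 11 of 20 (all genes 38.9%), and their median territory was 42.1 kb (all genes 34.2 kb). Per Mb they had 24.1 Atoh1-only and 16.8 Pou4f3-only sites, against 6.06 and 9.70 for all genes. Gadd45g, a stress and growth arrest gene, had 9 Atoh1-only sites with up to 11.1-fold and no Pou4f3 site. Cdkn1c, a cyclin kinase inhibitor, had 6 Atoh1-only and 3 Pou4f3-only sites. Btg2, an antiproliferative gene, had 5 and 2 with 1 shared, and the cyclin gene Ccnd3 had 4 and 3. Btg1, Ccnd1, Ccne1, Cdkn2a and Gadd45b had sites of both single classes. Ccnd2, Cdkn2b, Cdkn2c and Cdkn2d had none.

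In the list of LIM, Pou4f, Barhl and other neuronal transcription factors, 22 of 30 genes (73.3%, all genes 38.9%) were near Pou4f3-only sites. Near Atoh1-only sites were 13 of them (43.3%, all genes 22.7%), and the median territory was 76.5 kb. Per Mb they had 20.9 Pou4f3-only sites, above the 9.70 of all genes, and 5.23 Atoh1-only sites, below 6.06. The Notch, cell cycle, pluripotency, mesoderm and endoderm, and ribosomal lists also exceeded all genes in Pou4f3-only sites per Mb, with 12.7 to 41.3. Ebf3, an early neuronal factor, had 9 Pou4f3-only sites up to 7.73-fold and 2 Atoh1-only sites. Ebf1 had 7 Pou4f3-only sites and no Atoh1 site, and Pou4f1, a relative of Pou4f3 in sensory neurons, had 6 and 1. Barhl1, Barhl2, Ebf2, Lhx2, Onecut2, Pou3f1, Prdm8 and Uncx had sites of both single classes.

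Axon guidance genes were near Pou4f3-only sites in 26 of 32 cases (81.25%, all genes 38.9%). They were near Atoh1-only sites in 18 (56.25%, all genes 22.7%), but their median territory was 250.7 kb. Per Mb nearest to them they had 8.44 Pou4f3-only sites, below the 9.70 of all genes, and 2.31 Atoh1-only sites, below 6.06. Robo1, a receptor for Slit proteins, had 12 Pou4f3-only and 2 Atoh1-only sites. Plxna2, a semaphorin receptor, had 11 Pou4f3-only sites up to 14.7-fold, 1 Atoh1-only site and 1 bound in both lines. Efna5, an ephrin, had 8 Pou4f3-only sites and no Atoh1 site, and Nrp2 had 7 and 2. Both single classes were also found at Dcc, Efnb2, Plxna1, Sema3e, Sema6a, Sema6d, Slit1, Slit3, Unc5b, Unc5c and Unc5d.

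Genes of hair cell structure and function were near Pou4f3-only sites in 19 of 32 cases (59.4%, all genes 38.9%). They were near Atoh1-only sites in 11 (34.4%, all genes 22.7%), with 10 genes near no site. Their median territory was 95.2 kb, and per Mb they had 5.64 Pou4f3-only and 3.52 Atoh1-only sites, below all genes in both. Whrn, a stereocilia scaffold gene, had 4 Atoh1-only and 3 Pou4f3-only sites. Atp2b2, Cacna1d, Pcdh15 and Tmc1 also had both. Of the hair cell transcription factors, 12 of 18 (66.7%) were near Pou4f3-only sites, 10 (55.6%) near Atoh1-only sites and 4 (22.2%, all genes 4.76%) near a site bound in both lines. Per Mb they had 16.1 Pou4f3-only sites against 9.70 for all genes, and 6.62 Atoh1-only sites against 6.06. Eya1 had 3 Pou4f3-only sites up to 15.3-fold, 1 Atoh1-only site and 1 shared site, Isl1 had 5 Pou4f3-only and 1 shared, and Ikzf2 had 4 Pou4f3-only and 1 Atoh1-only. Nhlh1, Prox1 and Six2 also had sites of both single classes.

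Proneural bHLH genes and neuronal markers were read against the same shares of all genes, 22.7% for Atoh1-only and 38.9% for Pou4f3-only sites. Of the bHLH genes 7 of 20 (35.0%) were near Atoh1-only and 8 near Pou4f3-only sites, and 10 had none. Per Mb the bHLH genes had 10.9 Atoh1-only sites (all genes 6.06) and 8.31 Pou4f3-only sites (all genes 9.70). Atoh8, a relative of Atoh1, had 7 Atoh1-only sites up to 13.4-fold and no Pou4f3 site. Olig3 had 3 Pou4f3-only and 1 Atoh1-only site, and Neurod4 and Bhlhe22 had 1 of each. Of the neuronal markers 15 of 29 (51.7%) were near Pou4f3-only and 12 (41.4%) near Atoh1-only sites, but their median territory was 107.6 kb. Per Mb they had 8.08 Pou4f3-only sites, below the 9.70 of all genes, and 3.61 Atoh1-only sites, below 6.06. Elavl4, an RNA-binding protein of neurons, had 8 Pou4f3-only sites and no Atoh1 site, Syt1 had 6 and 1, Gap43 had 5 and 1, and Rbfox3 had 1 and 6. Elavl2, Ncam1 and Rtn1 also had both.

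Lists of other functions stood beside these. The shares of all genes were 22.7% for Atoh1-only, 38.9% for Pou4f3-only and 4.76% for shared sites. Pluripotency factors were near Atoh1-only sites in 7 of 25 cases (28.0%) and near Pou4f3-only sites in 12 (48.0%). Mycn had 4 Atoh1-only sites and 2 Pou4f3-only sites of up to 15.7-fold, Esrrb had 4 and 1, Lin28b had 5 Pou4f3-only sites, and Klf4 had 1 of each class. Myc, Sall4 and Utf1 had both single classes. Mesoderm and endoderm factors were near Atoh1-only sites in 9 of 24 cases (37.5%) and near Pou4f3-only sites in 10 (41.7%), and none was near a shared site. Runx1 had 3 and 5 such sites, Gata4 had 3 and 3, Gata2 had 2 and 1, Pdgfra had 3 Pou4f3-only sites, and Gsc and Mixl1 had 1 of each. Ribosomal protein genes, with a median territory of 9.34 kb, were near Pou4f3-only sites in 16 of 30 cases (53.3%), near Atoh1-only sites in 4 (13.3%) and near shared sites in 6 (20.0%). Rpl19 had a site of up to 12.0-fold for Pou4f3 and Rps14 one of 12.6-fold. Per Mb the pluripotency, mesoderm and endoderm, and ribosomal lists had 12.7, 12.9 and 41.3 Pou4f3-only sites, each above the 9.70 of all genes. In the same order they had 8.90, 10.2 and 10.9 Atoh1-only sites, each above 6.06.

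The study's own markers of hair cells and neurons had sites of unequal kinds. Myo6, an unconventional myosin of hair cells, had 5 Pou4f3-only and 2 Atoh1-only sites. The strongest lay 409 bp downstream of its start with 8.80-fold for Pou4f3 and matches to both Pou4f patterns, and it had a Pou4f3 peak in iG+P, iP+A and iGPA cells and an Atoh1 peak in iP+A cells. Barhl2, a homeobox gene of neurons, had 3 Pou4f3-only sites and 1 Atoh1-only site. Its strongest site lay at −2296 bp from the start at 6.78-fold for Pou4f3, with 3 matches to the first and 2 to the second pattern, and had a Pou4f3 peak in the same 3 other lines. Windows of 150 bp at these 2 sites show the matches.
Myo6, chr9:80013181-80013330: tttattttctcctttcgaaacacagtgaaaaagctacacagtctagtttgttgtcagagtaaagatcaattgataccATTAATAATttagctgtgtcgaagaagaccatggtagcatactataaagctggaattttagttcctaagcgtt
Barhl2, chr5:106889690-106889839: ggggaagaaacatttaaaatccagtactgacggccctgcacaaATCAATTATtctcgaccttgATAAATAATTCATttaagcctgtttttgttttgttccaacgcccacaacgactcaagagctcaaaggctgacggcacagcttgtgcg

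Tubb3, a tubulin of neurons, had 2 Atoh1-only sites and no Pou4f3 site. The stronger lay in an intron 1636 bp downstream of the start at 6.47-fold, held 1 CAGCTG and 1 CAGATG, and had an Atoh1 peak in iG+A, iP+A and iGPA cells. Cdh23, a tip link cadherin of hair cells, had 2 Pou4f3-only sites, 1 Atoh1-only site and 1 shared site in its introns, at up to 4.40-fold for Pou4f3 and 3.79-fold for Atoh1. Espn and Otof, genes for an actin bundler and a synaptic protein of hair cells, each had 1 Pou4f3-only site, at 3.09-fold and 2.85-fold. Myo7a, Lhx3 and Dcx had no site in either line.

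Sites were also assigned to the genes of the induced factors. Pou4f3 had 7 Pou4f3-only sites and 1 Atoh1-only site. The strongest lay at −1297 bp from its start at 18.2-fold and had a Pou4f3 peak in iG+P, iP+A and iGPA cells and an Atoh1 peak in iP+A and iGPA cells. Atoh1 had 3 Atoh1-only and 2 Pou4f3-only sites, at up to 4.89-fold and 4.04-fold. The 4.89-fold site lay 383 bp downstream of the Atoh1 start. The other Atoh1-only sites lay at −74349 and −71887 bp, and the Pou4f3-only sites at −73192 and −71444 bp. Gfi1 had 3 Pou4f3-only sites of up to 3.45-fold and no Atoh1 site. Reads of the introduced copies can align to the coding parts of these genes, so the Atoh1-only site 383 bp downstream of the Atoh1 start and the Pou4f3-only site 256 bp downstream of the Pou4f3 start cannot be told apart from the transgenes.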

How the data were processed

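Atoh1 was immunoprecipitated from iAtoh1 cells and Pou4f3 from iPou4f3 cells, with 2 ChIP and 2 input libraries each. According to the methods and the submitters' processing notes, the authors checked reads with FastQC and MultiQC, trimmed them with Trimmomatic, aligned them to mm9 with Bowtie2, removed duplicates with Picard and blacklisted regions with bedtools, and called peaks with MACS2 on merged ChIP against merged input libraries. The deposited peak tables give a fold enrichment (a ratio) and a −log10 p for each peak. The deposited summit lists, made by the authors from the called peaks by a filter not given in the sources used here, also hold a signal column whose definition is not stated, which served only to read the layout. Of the called peaks, 8551 of 24119 for Atoh1 and 4327 of 26760 for Pou4f3 were left out of those lists. Fold and p together gave whole fragments at the summit for 99.9% of peaks of each list (tolerance 0.001), with medians of 26 and 29 fragments.

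Windows of 300 bp around the summits were joined where they shared at least 1 bp. Each site was assigned to the nearest transcript start of GENCODE vM1 (mm9, also named NCBIM37), and a promoter site lay within 1000 bp of a start. Patterns were searched on both strands in 250 bp around the summit (the Atoh1 summit for joined sites), in flanks 1000 bp to either side, in 255825 windows every 10 kb and at 69963 protein-coding transcript starts. A CpG-rich window had over 55% GC and a CpG ratio over 0.6. Shares have exact Clopper-Pearson 95% intervals, differences of shares have Newcombe intervals, and differences over the same sites have paired Wald intervals. They cover counting error only, neighbouring sites are not independent, and no p-value was computed over sites. Reads without molecular identifiers are not independent molecules.

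The members and gene lists were chosen with earlier results of these data known. Named were the 6 protein-coding genes per class with most sites, for each list the 4 genes with most sites and any gene with sites of both single classes, the 12 markers and induced factors of the study, the 3 sites per class with the highest fold enrichment (for sites bound in both lines, with the best lower rank of the 2 lists) outside short tandem repeats and the exons of Atoh1 and Pou4f3, and the 5 leading words of 6 letters per class. Some genes that this rule names are not reported here. Dense tiles, the removal of promoters, the second Pou4f pattern, the strong sites with few E-boxes and the equal length of other lists were chosen after seeing the data. Python 3.11.15, NumPy 2.4.6, pandas 2.3.3, SciPy 1.17.1, pysam 0.24.0 and matplotlib 3.10.9 were used, and the scripts were tested on simulated data.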

Additional observations from a re-analysis of the deposited data

Results flagged for a closer look

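Peaks that the authors called and left out of the summit lists overlapped some of the sites given to 1 factor only. Of the 13628 Atoh1-only sites, 722 (5.30%, interval 4.93 to 5.69%) overlapped 1 of the 4327 called Pou4f3 peaks that were left out, and outside dense tiles the share was 3.32%. Of the 20664 Pou4f3-only sites, 474 (2.29%, 2.09 to 2.51%) overlapped 1 of the 8551 called Atoh1 peaks that were left out, and outside dense tiles the share was 1.00%. These peaks entered no comparison of the classes, except where all called peaks were used.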

How the results depend on the processing

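No paired analysis was possible because the authors merged the replicates before peaks were called, and no replicate could be left out for the same reason. Of 97 alternative values, 66 stayed on the same side with the same direction or moved by less than their interval, 29 moved, 1 lost its call and 1 reversed. The share of Atoh1 sites also bound by Pou4f3 was 6.31% with windows of 100 bp, 18.3% with 1000 bp, 5.24% at a −log10 p of at least 10, 6.85% with lists of equal length, 18.5% with all called peaks, 10.7% with full peak intervals, 10.2% without dense tiles and 7.80% without promoters. The share of Pou4f3 sites was 4.38%, 11.4%, 2.68%, 6.76%, 15.9%, 7.37%, 5.14% and 6.02% in the same order. The GC difference between Atoh1-only and Pou4f3-only sites was 4.23 points with 1000 bp, 5.37 at a −log10 p of at least 10, 3.39 with equal length, 0.503 with all called peaks, 4.67 with 100 bp searched, 6.18 without dense tiles and 6.29 without promoters. The share of Atoh1 genes that were also Pou4f3 genes was 41.1% at a −log10 p of at least 10, 51.0% with equal length, 67.8% with all called peaks, 68.3% with protein-coding starts only, 58.9% within 50 kb and 52.1% without promoters. The intergenic difference reversed to −0.313 points at a −log10 p of at least 10, and the difference in Pou4f3 peaks at Atoh1-only sites between iP+A and iG+P became −0.506 points with other lists of equal length. The cause was not tested. The CAGCTG difference ranged from 23.2 to 43.6 points and was 18.9 with any E-box counted in its place. The Pou4f difference ranged from −52.0 to −34.4 points and was −8.47 with exact matches only. The promoter difference ranged from −15.8 to −2.79. The difference in Atoh1 peaks at Pou4f3-only sites between iP+A and iG+A ranged from 4.28 to 8.20. Leaving out dense tiles or promoters, the second Pou4f pattern and the equal length of the other lists were chosen after seeing the data. With no value per replicate, the spread between clones is unknown. The lowest stack among kept peaks was 19 fragments in each list, and the part of depth and of the authors' filter in that limit was not tested.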
